A study of Mus musculus with 6 samples.

Results

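Twist1, Twist2, Snai1, Snai2, Zeb1, Zeb2 and Prrx1 encode the transcription factors that are best known for setting up and keeping the mesenchymal state. They were taken from the authors' deposited table as the rows whose gene name equals 1 of these 7 symbols, and all 7 were found among its 23361 genes. All 7 were also among the 14858 genes that the authors tested. RNA was sequenced from cells of hindlimb muscle of mice aged 4 months, sorted for the surface proteoglycan Sdc4 and labelled as primary satellite cells, in 3 wild-type and 3 AUF1-null samples. The mice came from a colony of C57BL/6 and 129 background, and the labels name no other allele or agent. Hnrnpd encodes AUF1, a protein that recognizes AU-rich stretches of mRNA 3' ends and alters mRNA decay, and Twist1 mRNA has been described as 1 of its targets. The deposited table holds 1 value per gene for each of 2 conditions, named q1 and q2, after pooling of the replicates. Neither the table's columns nor the labels say which of them is the AUF1-null one. The name of the deposited table puts wild type before knockout, but an order was not taken as an assignment, so each direction below compares q2 with q1 and names no genotype.

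Twist proteins are basic helix-loop-helix factors that bind E-box DNA as dimers with E proteins, and Twist1 and Twist2 hold muscle and bone precursors back from differentiation. Snai1 and Snai2 (also called Snail and Slug) and Zeb1 and Zeb2 are zinc finger repressors that bind the E-box CAGGTG and its reverse complement CACCTG, with the E-cadherin gene Cdh1 as their classic target. Prrx1 is a homeobox factor of limb mesenchyme. In adult muscle these factors are expressed in fibroblasts, fibro-adipogenic cells, vessel wall cells and, for some of them, in satellite cells and macrophages, so a sorted population can carry their mRNAs from several cell types.

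Since AUF1 acts through AU-rich elements, the 3' UTRs of the factors were read first. In the longest 3' UTR annotated for each gene by GENCODE vM21 (GRCm38), all 7 held the pentamer ATTTA, which 69.3% of 13060 tested genes with an annotated 3' UTR also held. The longer form, TATTTA with A or T on either side, which contains the pentamer, was found in 3 of 7 members (Twist1, Zeb1 and Zeb2) and in 32.3% of tested genes. Both motifs were searched on the transcript strand alone. For 6 of the factors the 30 bases with most pentamers are shown, 5' to 3', with ATTTA in capitals, because they let the short AU-rich stretch of Twist1 be set beside those of the others:
Twist1: gacaacattctATTTATTTAttgatgaccc
Twist2: gcaagaATTTAgtgggggcATTTAaaattc
Snai1: acattttaaaggtATTTAtattgtaagcag
Snai2: agtttaaaattatATTTActgacagctaga
Zeb2: ttattcaaATTTAgtctATTTActttacag
Prrx1: acaaaagtatcccATTTAagacacatttgc

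Twist1 carried both of its pentamers in 1 place, overlapping each other, at chr12:33959682-33959711 on the plus strand, bases 553 to 582 of a 3' UTR of 700 bases. No other stretch shown has overlapping pentamers. The Twist2 stretch lies at chr1:91803876-91803905 (plus strand) and holds 2 separate pentamers. Those of Snai1 at chr2:167542718-167542747 and Snai2 at chr16:14708570-14708599, both on the plus strand, hold 1 each. The Zeb2 stretch at chr2:44986854-44986883 (minus strand) holds 2 and the Prrx1 stretch at chr1:163257400-163257429 (minus strand) holds 1.

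The factors differed widely in the length of this region. Zeb2 had a 3' UTR of 4941 bases with 26 pentamers and 4 of the longer motifs, more pentamers than 99.6% of tested genes. Prrx1 had 12 pentamers in 4891 bases, Zeb1 6 in 2401 bases and Twist2 4 in 1885 bases. Twist1, Snai1 and Snai2 had 2 pentamers each in 700, 731 and 1089 bases, against a median of 2 pentamers and 1137 bases over tested genes. Per kilobase the pentamer occurred 5.26 times in Zeb2 and 2.86 times in Twist1, and 1.82 times over all tested genes. Twist1 was close to Snai1 (2.74), Zeb1 (2.50) and Prrx1 (2.45) by this measure, with Twist2 at 2.12 and Snai2 at 1.84. A motif match is a description of these letters and does not show that AUF1 binds there.

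**Figure D1:**
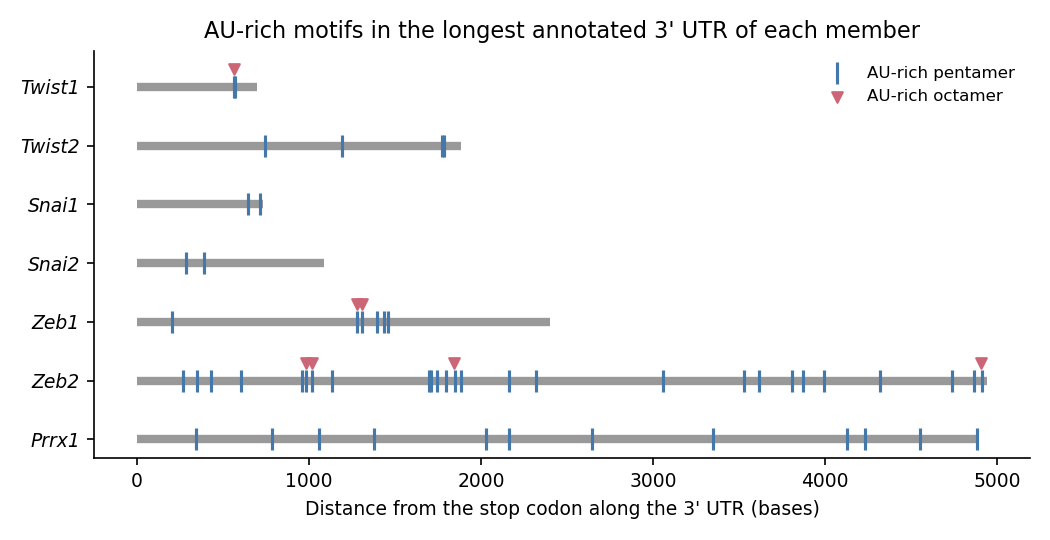
Longest annotated 3' UTR of each factor (grey bar; x axis, bases from the stop codon), with AU-rich pentamers as blue ticks and the longer AU-rich octamers as red triangles. Zeb2 holds 26 pentamers along 4941 bases, while the 2 pentamers of Twist1 overlap at 1 place near the end of its 700 bases.

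The Zeb and Snail genes and Prrx1 were expressed at moderate levels and the Twist genes at low levels in both conditions. On the FPKM scale of the authors' deposited table, which is per transcript length, the order in q1 was Zeb1, Snai2, Snai1, Zeb2, Prrx1, Twist1 and Twist2. In q2 it was Snai1, Zeb1, Snai2, Prrx1, Zeb2, Twist1 and Twist2. The 5 upper genes spanned only 14.5 to 22.1 in q1 and 12.0 to 19.6 in q2 in the deposited table. With no value per sample, neighbours in this order cannot be told apart beyond a replicate spread. Both Twist genes came last in either condition. The mean of the 2 values of Zeb1 lay above those of 73.0% of tested genes, that of Twist1 above 20.7% and that of Twist2 above 12.9%. The 7 levels summed to 92.0 in q1 and 81.1 in q2 in the deposited table, and Twist1 made up 3.11% of that sum in q1 and 0.990% in q2.

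None of the 7 factors passed the authors' test, in which 0.612% of all tested genes had a Cuffdiff q below 0.05. At an unadjusted Cuffdiff p below 0.05, which 5.99% of tested genes reached, 1 of 7 stood out by the deposited values, namely Twist1. At a q below 0.10, which 0.74% of tested genes reached, still none did. By these values 6 members were lower and 1 higher in q2, where 51.3% of all tested genes were lower. The median log2 difference of the 7 was -0.29, or -0.28 without Twist1, beside -0.01 over all tested genes.

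**Figure D2:**
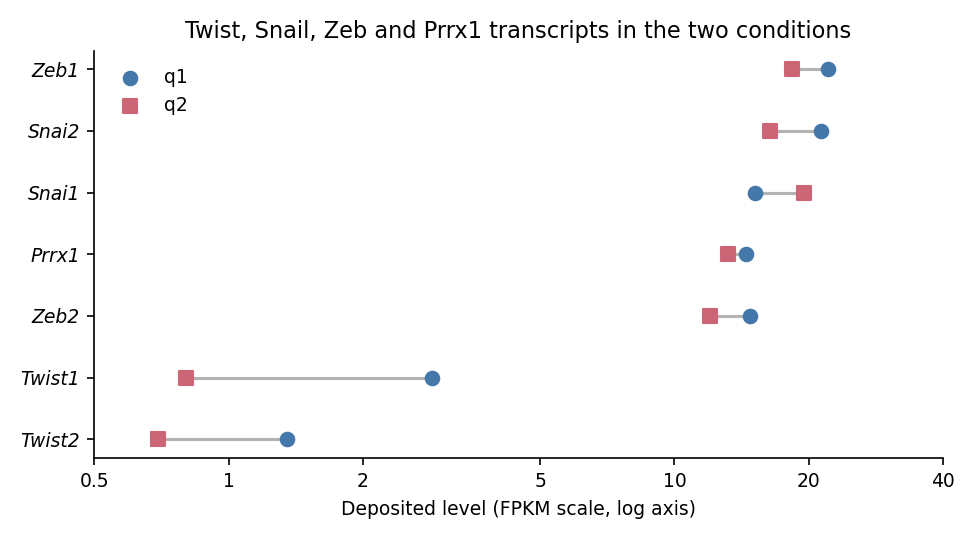
Deposited level of each factor in q1 (blue circles) and q2 (red squares) on the FPKM scale (log x axis); each point is 1 pooled value, so there are no error bars. Twist1 has the longest line, from 2.86 to 0.80, and Snai1 is the gene whose q2 value lies to the right of its q1 value.

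Twist1, at chr12:33957671-33959831 (GRCm38), was the factor with the largest difference. The authors' deposited table lists it at 2.86 in q1 and 0.80 in q2, a 3.57-fold lower value in q2 (log2 difference -1.83, or -1.10 when a pseudocount of 1 is added to both values). Its Cuffdiff p was 0.0115, which became a q of 0.485 over all tested genes in the deposited table, so the difference did not pass. In all, 352 tested genes had a p as small as or smaller than that of Twist1. Differences of this size were uncommon among genes of the same low level: of 3217 tested genes whose mean lay within a factor of 2 of Twist1, 4.85% differed by at least as much in either direction (95% Wilson interval 4.16 to 5.65, counting error over genes only), and 25 genes, or 0.777%, were as low in q2. Of those 3217 genes the authors called 3, the smallest fold among them being 3.07. The depth behind these values is unknown.

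Twist2, at chr1:91801477-91848027, lay on the same side with a smaller difference. Its values were 1.35 in q1 and 0.69 in q2 by the authors' deposited table, 1.95-fold lower in q2 (Cuffdiff p = 0.430, q = 0.999). Among 2629 tested genes within a factor of 2 of its mean, 27.7% differed by at least as much, so a difference like that of Twist2 was common at this level. Twist1 was 2.12 times as high as Twist2 in q1 and 1.16 times as high in q2 on the deposited scale. Whether the ratio differed between the conditions was not tested. The Twist1 and Twist2 transcripts of GENCODE share no stretch of 30 identical bases, and neither do Snai1 and Snai2, Zeb1 and Zeb2, or Prrx1 and its relative Prrx2.

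The Snail genes lay on opposite sides of 0. Snai1, at chr2:167538227-167542811, was the one factor with a higher value in q2, with 15.2 against 19.6 by the authors' deposited table, a 1.29-fold difference that did not pass (Cuffdiff p = 0.341, q = 0.999). Snai2, at chr16:14705859-14709382, had 21.3 and 16.4 by the authors' deposited table, 1.30-fold lower in q2 (Cuffdiff p = 0.329, q = 0.999). Their order was thereby exchanged, with Snai2 at 1.40 times the level of Snai1 in q1 and Snai1 at 1.19 times the level of Snai2 in q2 by the deposited values. This exchange was not tested either, and each of the differences was met or exceeded by 31.0% (Snai1) and 27.9% (Snai2) of tested genes within a factor of 2 of the same level.

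Zeb1, Zeb2 and Prrx1 differed least. Zeb1 had 22.1 in q1 and 18.4 in q2 by the authors' deposited table (log2 difference -0.26, Cuffdiff p = 0.468, q = 0.999). Zeb2, at chr2:44983634-45114084, was at 14.8 and 12.0 by the authors' deposited table (log2 difference -0.29, Cuffdiff p = 0.392, q = 0.999), and the ratio of Zeb1 to Zeb2 was 1.49 in q1 and 1.53 in q2. Prrx1, at chr1:163245119-163313650, came to 14.5 and 13.2 by the authors' deposited table (log2 difference -0.13, Cuffdiff p = 0.705, q = 0.999). Among genes of the levels of Snai1, Snai2, Zeb1, Zeb2 and Prrx1, the smallest fold that the authors called was 3.12 near Zeb2 and 3.17 near the others, so differences of 1.10 to 1.30-fold were far smaller than any called there, and the missing calls do not show equal expression. The strand setting is not given, and GENCODE places genes on the opposite strand over Twist2, Zeb1, Zeb2 and Prrx1, among them Zeb2os, so reads of these could be mixed. At the Zeb2 locus the authors' deposited table also lists Gm13476, at 2.25 and 1.40. At the Zeb1 locus it lists Gm10125, at 0 and 0.07 and not tested by the authors. How far reads were mixed was not tested. No annotated gene overlaps Twist1, Snai1 or Snai2.

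**Figure D3:**
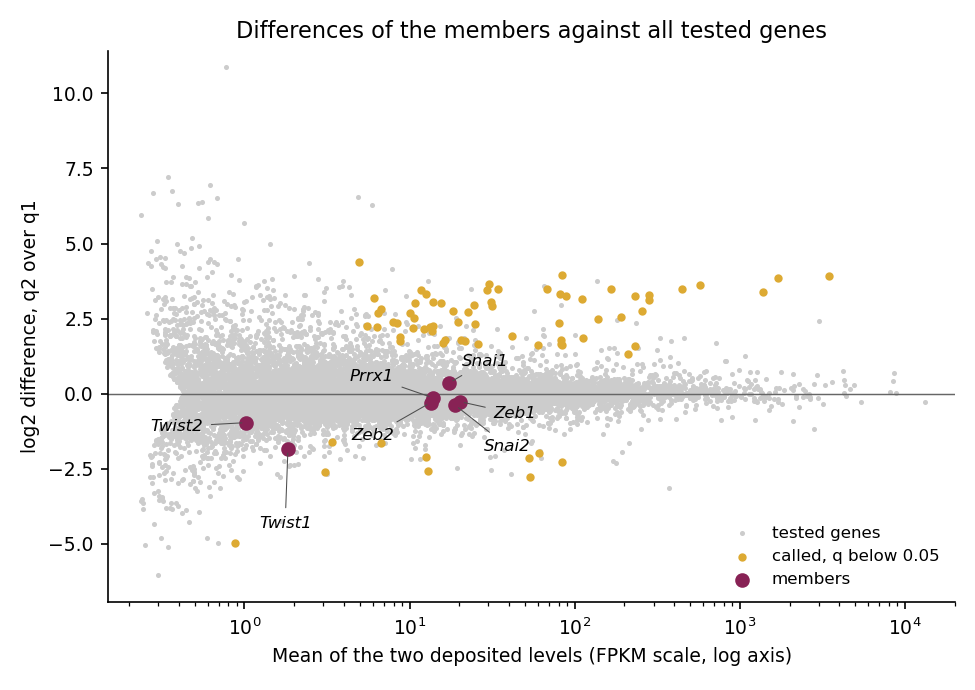
Log2 difference of q2 over q1 (y axis) against the mean of both deposited levels (log x axis) for tested genes above 0 on both sides; genes with q below 0.05 are yellow and the 7 factors purple. Twist1 at -1.83 lies near the lower edge of the grey cloud at its level, Twist2 at -0.96 inside it, and the other 5 factors lie between -0.38 and 0.36.

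None of the nearest tested genes on either side of a factor had a difference as large as that of Twist1. Hdac9, a histone deacetylase gene 87.8 kb beyond Twist1, had values of 5.15 and 4.66 by the authors' deposited table (Cuffdiff p = 0.745). The bHLH gene Ferd3l on the other side was listed at 0 in both conditions and was not tested. Hdac4, 84.7 kb beyond Twist2, was at 6.49 and 7.15 in the deposited table. Of the 14 nearest tested genes, 1 on each side of every factor, none had an unadjusted p below 0.05, 8 were lower and 6 higher in q2. They were taken at any distance, from 22.1 kb (Spata2 before Snai1) to 3700 kb (Orc4 after Zeb2). The one before Twist1, Twistnb, lay 518 kb away.

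E proteins, with which Twist proteins pair, and the Id proteins that sequester E proteins were listed at higher levels per length than the Twist mRNAs in both conditions. None of these 7 genes passed, and none had an unadjusted p below 0.05. Id3, Id1 and Id2 were listed at 915, 238 and 130.2 in q1 and at 930.3, 299.97 and 147 in q2 by the authors' deposited table. The E protein gene Tcf4 was at 115 and 83.3 there. The deposited values of the 3 E protein genes, Tcf4, Tcf12 and Tcf3, and of Id4 lay lower in q2. When the summed values of all tested genes were made equal, a scaling that moves every log2 difference by -0.11 and puts 61.1% of all tested genes below 0 in place of 51.3%, Id3 also lay below 0 and no member of the Twist, Snail, Zeb and Prrx1 group changed side.

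Other transcription factors of mesenchyme gave no call. Of 5 tested genes in the list of related bHLH factors, 4 were lower and 1 higher in q2 (median log2 difference -0.21). That list includes Bhlhe40 and Bhlhe41, which are circadian repressors rather than close relatives of Twist, and Bhlhe41 was the 1 higher gene. Of 20 tested homeobox, T-box, forkhead and similar factors, 12 were lower and 8 higher (median -0.30). Over all tested genes 51.3% were lower and the median was -0.01. None in either list of factors had an unadjusted p below 0.05. With a pseudocount of 1 the medians of the bHLH list and of the other factors were -0.10 and -0.17. In the bHLH list the highest level was that of Bhlhe40, at 253 and 236 in the authors' deposited table, followed by Tcf15, a factor of paraxial mesoderm, at 19.5 and 11.5. Meox2 and Meox1, homeobox genes of somites and vessels, were listed at 131 and 105.5 and at 17.7 and 11.5 in the deposited table. Foxc1 was at 9.56 and 7.23 and Osr2 at 6.40 and 8.73 there. Of the 32 tested factors in these lists, those with a log2 difference nearest to that of Twist1 over the 2 conditions were the forkhead gene Foxc2 (-1.54), the tendon factor Scx (-2.73) and Tcf15 (-0.76). Foxc2 and Scx were low, at 0.75 and 0.26 and at 1.28 and 0.19 by the authors' deposited table, and did not pass (Cuffdiff p = 0.188 and 0.225). The deposited locus of Scx is wide, chr15:76380513-76477269, and genes that overlap it were not looked up.

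TGF-beta and BMP signals induce the Snail, Zeb and Twist genes, and none of their 22 tested ligand, receptor and Smad genes passed. In q2, 17 lay lower and 5 higher, with a median log2 difference of -0.32. Over all tested genes 51.3% were lower and the median was -0.01. The co-receptor genes Eng and Tgfbr3 were listed at 126 and 98.7 and at 49.2 and 76.5 by the authors' deposited table. The receptor gene Acvrl1 was at 57.6 and 45.1 and the ligand gene Tgfb3 at 31.9 and 35.5 there. One gene of the 22 had an unadjusted p below 0.05, where 5.99% of all tested genes did. It was the BMP receptor gene Bmpr2 at 8.46 and 3.99 by the authors' deposited table (Cuffdiff p = 0.0168, q = 0.562), which was singled out after its values were seen. Among 15 tested genes for corepressors and turnover of Snail and Zeb proteins, 12 were lower and 3 higher in q2 (median -0.18), beside the same all-gene values. The equal-sum scaling put all 15 below 0, since the 3 higher ones lay within its uniform shift of 0, and it moved all tested genes alike. Hdac1, a deacetylase, was at 62.3 and 64.7, the kinase gene Gsk3b at 29.1 and 25.0, and the corepressor genes Ctbp1 and Ctbp2 at 28.6 and 25.4 and at 23.8 and 20.3 in the deposited table. None of these 15 had an unadjusted p below 0.05.

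Epithelial genes, the class that Snail and Zeb proteins repress, lay mostly higher in q2, again without a call. Of 15 tested members 13 were higher and 2 lower, with a median log2 difference of 1.25 beside -0.01 over all tested genes. Since 3 of the 15 stayed below 1 on both sides, the median depends on how low values are treated and was 0.54 with a pseudocount of 1. An unadjusted p below 0.05 was reached by 4 members, all higher in q2, where 3.72% of all tested genes met both conditions. The keratin gene Krt18 had 9.35 in q1 and 29.9 in q2 by the authors' deposited table (Cuffdiff p = 0.00315, q = 0.248), and Krt19 at 10.3 and 21.7 (Cuffdiff p = 0.0452, q = 0.803). Krt8, the partner of Krt18 in keratin filaments, was at 2.96 and 10.3 (Cuffdiff p = 0.0177, q = 0.569), and Cdh1 at 3.11 and 6.69 (Cuffdiff p = 0.0163, q = 0.559) by the authors' deposited table; both were singled out after their values were seen. The junction genes Jup and Tjp1, which many cell types express, were the 2 lower ones, at 89.9 and 80.9 and at 33.3 and 27.2 in the deposited table.

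The promoters of Krt18 and Krt8 are printed as examples picked after their values were seen, and that of Snai1 because it holds the E-box its own family binds. They run from 250 bases before to 50 bases after the start site (RefSeq, GRCm38.p6), 5' to 3' along the gene, with CAGGTG or CACCTG, which are the same site read on either strand, in capitals:
Snai1: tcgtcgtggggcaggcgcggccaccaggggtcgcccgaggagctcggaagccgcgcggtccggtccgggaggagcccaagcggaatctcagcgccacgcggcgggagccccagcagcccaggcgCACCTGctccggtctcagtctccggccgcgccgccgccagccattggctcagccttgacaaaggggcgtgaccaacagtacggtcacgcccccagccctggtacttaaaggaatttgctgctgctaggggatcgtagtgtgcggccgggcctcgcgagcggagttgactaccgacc
Krt18: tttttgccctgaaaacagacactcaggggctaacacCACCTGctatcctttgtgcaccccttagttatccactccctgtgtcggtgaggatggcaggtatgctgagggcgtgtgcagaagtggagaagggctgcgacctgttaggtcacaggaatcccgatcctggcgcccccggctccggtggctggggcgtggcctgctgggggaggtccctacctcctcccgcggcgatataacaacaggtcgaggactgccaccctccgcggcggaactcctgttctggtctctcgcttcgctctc
Krt8: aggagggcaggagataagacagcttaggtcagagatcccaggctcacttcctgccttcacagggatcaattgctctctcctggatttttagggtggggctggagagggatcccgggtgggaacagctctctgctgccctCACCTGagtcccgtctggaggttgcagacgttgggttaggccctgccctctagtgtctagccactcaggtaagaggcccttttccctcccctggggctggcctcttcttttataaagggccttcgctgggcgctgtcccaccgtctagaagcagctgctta

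Each of the 3 holds 1 such E-box, which starts 126 bases before the start site in Snai1 (chr2:167537945-167538244, plus strand), 214 bases before it in Krt18 (chr15:102027966-102028265, plus strand) and 111 bases before it in Krt8 (chr15:102004293-102004592, minus strand). Of 27025 genes with a promoter of this length, 22.6% hold at least 1. The Twist1, Twist2, Zeb2 and Prrx1 windows hold none of these letters. Krt18 and Krt8, with log2 differences of 1.68 and 1.80, were not the epithelial genes that differed most. Cldn3, Cldn4 and Epcam, for example, had 3.29, 3.11 and 2.14 at lower levels, and their promoters are not printed. No promoter sequence was found for Cdh1. A sequence was matched for only 5 of 7 factors and 13 of 19 epithelial genes. Both lists fall short of the 80% matched that was required, so no E-box count over either list is compared with other genes. An E-box match is a description and not a binding site.

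Effector genes of the mesenchymal state lay mostly lower in q2. Of 27 tested, 21 were lower and 6 higher, with a median log2 difference of -0.29. After the equal-sum scaling 23 were lower, while over all tested genes the share lower went from 51.3% to 61.1%. None passed, and 3 had an unadjusted p below 0.05, all lower in q2, where 2.27% of all tested genes met both conditions. Sparc, a matricellular protein gene, was listed at 2007 and 1583, the intermediate filament gene Vim at 961 and 806 and the smooth muscle actin gene Acta2 at 465 and 428 in the authors' deposited table. Col1a2, a chain of type I collagen, was at 211 and 102.7 by the authors' deposited table (Cuffdiff p = 0.00985, q = 0.461). The other 2, Col1a1 at 128 and 66.1 and the matrix gene Tnc at 9.53 and 4.23 in the deposited table, were singled out after their values were seen. N-cadherin, the product of Cdh2 and the usual counterpart of E-cadherin, had 4.47 and 3.42 by the authors' deposited table (Cuffdiff p = 0.378).

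**Figure D4:**
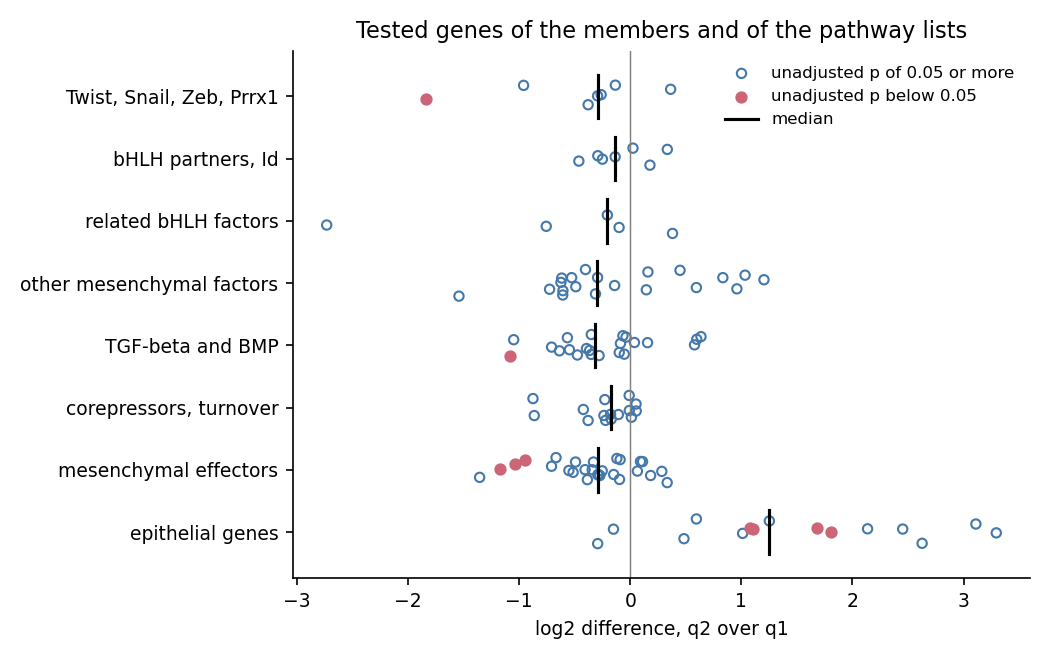
Log2 difference of q2 over q1 (x axis) for each tested gene with both values above 0, by list; filled red points have an unadjusted Cuffdiff p below 0.05 and the black line is the median. The epithelial list lies mostly to the right with a median of 1.25, the mesenchymal effectors mostly to the left with a median of -0.29, and Twist1 at -1.83 is the filled point among the 7 factors.

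Marker genes of other cell types differed between the conditions as well. The summed level of 10 neutrophil markers was 1189 in q1 and 15428 in q2 over the authors' deposited table, with 8 of 10 called higher, against 0.498% of all tested genes, and all 10 lay higher. Lymphocyte markers summed to 14.3 and 69.2 (1 of 8 tested called higher, all 8 higher) and myofibre markers to 1703 and 3260 (none of 7 tested called, all 7 higher) by the deposited values. Endothelial markers summed to 16999 and 14282 and tenocyte markers to 366 and 276 in the deposited table, with all 9 and all 7 lower and none called.

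In the other lists the members lay on both sides of 0. Macrophage and monocyte markers summed to 1424 and 2705 by the deposited values, or to 791 and 1202 without Lyz2, a lysozyme gene that neutrophils also express. Of these 12 markers 8 were higher, 2 of them called (Tyrobp and Ccr2), and 4 were lower, namely Cd163 at 23.1 and 13.1, Csf1r at 83.8 and 49.7, Emr1 at 26.3 and 23.5 and Mrc1 at 39.3 and 38.7 in the deposited table. Which cells the higher markers came from, the 2 called ones included, was not tested. Chondrocyte markers summed to 40.7 and 21.1, of which Comp made up 31.2 and 15.7. Of 7 tested, 4 were lower, 3 of them called, where 0.114% of all tested genes were called lower. The 3 called were Col11a1 at 5.27 and 0.87, Col2a1 at 1.69 and 0.05 and Acan at 0.47 and 0 in the deposited table. These are low values, and those of Acan stayed below 1 on both sides. Sox9 at 1.81 and 3.23, Matn3 at 0.16 and 0.69 and Col9a1 at 0.15 and 0.48 lay higher there, and Matn1 was listed at 0 in both. Satellite cell markers summed to 355 and 416, but 7 of 12 were lower, and without Sdc4, the protein used for the sort (173 and 270 in the deposited table), the sums were 182 and 146. Of the 7 lower ones, Vcam1 had the highest level, at 90.8 and 65.1. Pax7, their defining factor, was also among the lower ones, listed at 1.16 and 0.85 there, well below the endothelial and fibroblast genes. Besides Sdc4, 4 markers lay higher in q2, namely Myf5 at 16.7 and 17.8, Cdh15 at 2.01 and 2.43, Calcr at 1.52 and 2.26 and Myod1 at 0.63 and 0.88. Pericyte and smooth muscle markers summed to 3617 and 4676, but 6 of 9 were lower, and without Rgs5 (2279 and 3553 in the deposited table) the sums were 1337 and 1123. Fibroblast and fibro-adipogenic markers summed to 6714 and 5825 (7 of 10 lower) and Schwann cell markers to 1392 and 1471 (3 of 7 lower) there. None of the satellite, pericyte, fibroblast and Schwann cell markers was called.

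The lists overlap in part. Of the mesenchymal effectors, 5 are also markers here (Col1a1, Col3a1 and Pdgfra of fibroblasts, Acta2 and Pdgfrb of pericytes), as are the factors Scx, Mkx, Msc and Sox9, so these genes count in both places. The part of these cell types in the differences of Twist1, the other factors and the epithelial and mesenchymal genes was not tested. In such bulk samples, fewer cells of a type and less RNA per cell cannot be told apart.

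**Figure D5:**
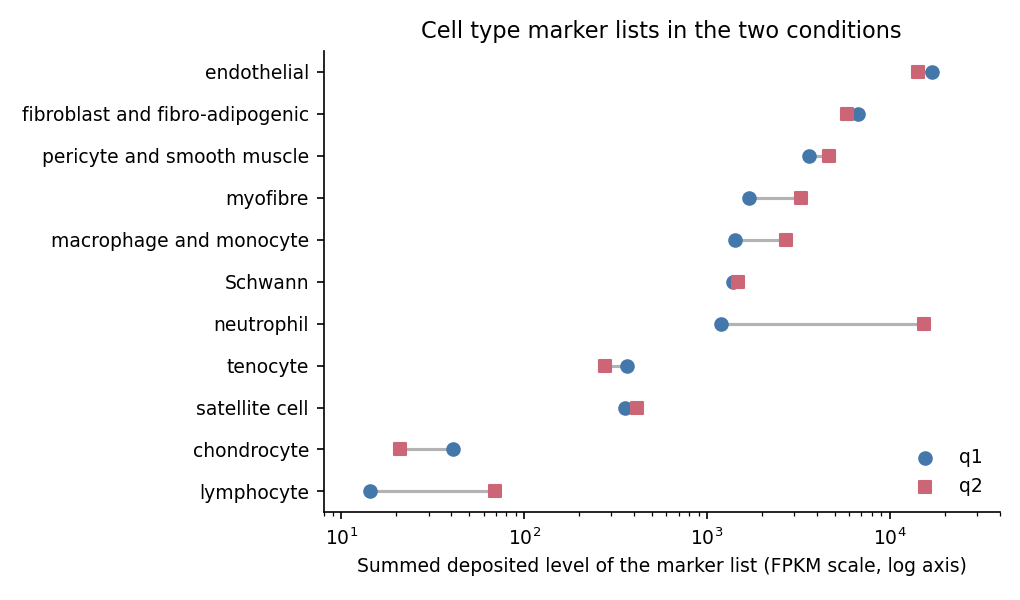
Summed deposited level of each cell type marker list (FPKM scale, log x axis) in q1 (blue circles) and q2 (red squares). The neutrophil list spans from 1189 to 15428, while the fibroblast list, at 6714 and 5825, and the satellite cell list, at 355 and 416, lie closer together.

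The targeted gene Hnrnpd itself had values of 7.50 and 5.59 by the authors' deposited table (log2 difference -0.42, Cuffdiff p = 0.291, q = 0.999). Since no source used here describes which part was deleted, this value identifies neither condition.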

How the data were processed

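RNA of 3 wild-type and 3 AUF1-null samples had been sequenced, and 1 gene table with the column layout of Cuffdiff was used. TopHat2 (2.0.9) and Cufflinks (2.2.1) had been run, per the submitters' processing notes. No source used here states the annotation, normalization or strand setting. The notes name mm9, but among 21500 table genes found on the same chromosome in GENCODE vM21, 99.5% overlapped their GRCm38 position, so positions are given in GRCm38, 1-based. The authors deposited, per the file headers, a level for each gene in each condition, taken here as FPKM because Cuffdiff writes that scale (the headings name no unit). They also deposited the log2 fold change, a test statistic (a score, not used), the p-value and the q-value. Values per sample and depths were not analysed here, so no SD, n or own test stands beside a gene, and p-values may reflect technical spread, since no label says that samples came from separate mice. A gene was called at status OK and q below 0.05. Adjusting the deposited p-values by Benjamini-Hochberg over 14858 genes returned the deposited q-values.

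The members and gene lists were chosen with earlier results of these data known, and the lists come from general knowledge. The 7 members, Hnrnpd, the called genes and the 4 genes with the highest mean of each list were to be named, and the 3 listed factors nearest Twist1; others were chosen after their values were seen. The adjustment was tested on simulated data. Sums, ratios, shares and motif counts were made with Python 3.11.15, pandas 2.3.3 and NumPy 2.4.6.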

Additional observations from a re-analysis of the deposited data

How the results depend on the processing

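The 7 factors' log2 differences had 35 alternative values, from pseudocounts of 0.1 and 1, centring on the median of tested genes, equal summed values and a new adjustment. The new adjustment took the p-values of the 13417 genes with at least 1 on the higher side. All 35 had the direction and the uncalled status of the deposited ones, but most of this was fixed in advance. A pseudocount on both values or a new adjustment cannot turn a direction, so only the centring and the equal-sum scaling could. The uncalled status could change in the new adjustment alone, since the other settings keep the deposited p and q. Twist1 moved most with a pseudocount of 1, to -1.10, and its q after the new adjustment was 0.461. At an unadjusted p below 0.05, which 5.99% of all tested genes reached, in place of the q, counts of called genes went from 0 to 1 among the 7 factors, 1 among TGF-beta and BMP genes, 4 among epithelial genes and 3 among mesenchymal effectors, and were 0 in the other lists. At a q below 0.10, or with the low-value minimum, all of these counts were 0. The equal-sum scaling and the marker sums without the gene of highest level were chosen after seeing the data. No list median changed sign; that of the epithelial genes was 1.09 and 0.54 with pseudocounts of 0.1 and 1, and a pseudocount of 1 brought the related bHLH factors from -0.21 to -0.10 and the other mesenchymal factors from -0.30 to -0.17. With a window of a factor of 1.5 around each factor's level, the share of genes that differed at least as much moved beyond its counting interval for Zeb1 alone, to 41.6%. No paired analysis was possible because the values are pooled over replicates, and leaving out a replicate could not be run for the same reason. Depth is unknown, so what limits the low values of Twist1 and Twist2 cannot be given.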

Other observations

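Keratin genes of stratified epithelium that were on none of the lists were looked up after the epithelial values were seen. The authors' deposited table lists Krt14 at 1.06 in q1 and 5.56 in q2 (Cuffdiff p = 0.0169, q = 0.564) and Krt17 at 0.99 and 6.72 (Cuffdiff p = 0.00805, q = 0.401). Sfn, an epithelial 14-3-3 protein gene, was at 3.87 and 10.5 by the authors' deposited table (Cuffdiff p = 0.0128, q = 0.504). Krt10, a keratin of differentiated epidermis, was at 1.91 and 2.08 by the authors' deposited table and Perp, a desmosome gene, at 2.14 and 2.17 (Cuffdiff p = 0.849 and 0.978). Trp63, the basal keratinocyte factor, was listed at 0.31 and 0.16 there and was not tested by the authors. Msln, a mesothelial gene, had 1.61 and 2.65 by the authors' deposited table (Cuffdiff p = 0.227). These genes were picked after results were known, so no count over them is given.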
